A study of Homo sapiens with 36 samples.

Results

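The 33 genes described here encode enzymes and transporters that make purine and pyrimidine nucleotides, supply the folate cofactors for that synthesis, convert ribonucleotides to deoxynucleotides and recover bases and nucleosides. They were listed by gene symbol, and each symbol was mapped to its Ensembl identifier with GENCODE release 44, which found all 33 among the 58302 identifiers counted. The counts came from RNA of the established human lines JEKO, MINO and UPN-1, derived from mantle cell lymphoma, a mature B cell malignancy marked in most cases by cyclin D1. Cells of each line received GS716054, which the labels call a KDM5 inhibitor (KDM5 enzymes remove methyl groups from lysine 4 of histone H3), or its vehicle DMSO, and were collected after 24 h or 72 h. Each of the 12 groups held 3 biological replicates, so that 36 libraries were available, and the design asks what the inhibitor does to expression in each line at each time. The labels give no dose, and no group carries a genetic change beyond those of its line. Each line is a single culture history, so differences between lines describe these 3 cultures, and p-values measure the spread between replicates that the labels call biological without saying whether they were grown separately.

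Purine rings are built stepwise on phosphoribosyl pyrophosphate (PRPP), and pyrimidine rings are built first and then joined to it. Several of these steps take a carbon unit carried by a tetrahydrofolate, and thymidylate synthase uses another such unit to make the thymine nucleotide of DNA. Dividing lymphoid cells are known for a high demand for these products, and antifolates and nucleoside analogues that block the pathways are used against lymphoid cancers. MYC is known as an activator of many genes of nucleotide synthesis, and E2F factors are known for driving the deoxynucleotide genes around S phase.

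Libraries held 8784815 to 14970876 reads in genes, with a median of 11926903. B cell and mantle cell lymphoma markers, among them MS4A1, CD79A, CD79B, PAX5, CD5, CCND1 and SOX11, all had a mean of at least 1 CPM, the count scaled to library size, in each line. Of 9 markers of T, myeloid, erythroid, epithelial and fibroblast cells, 4 reached that mean in MINO, 2 in JEKO and 1 in UPN-1, and their summed level stayed between 2.04 and 20.5 CPM in every library, while CD14, S100A8 and HBB were below 1 CPM on average in every group. CD3D, a T cell marker, stood at 2.23, 3.34 and 0.926 CPM in JEKO with GS716054 at 72 h against 0.241, 0.174 and 0.164 in DMSO, and its part in the JEKO results was not tested. At 72 h some libraries stood apart within their line: the summed level of the 33 genes was 1758 CPM in the MINO GS716054 replicate 2 library against 2923 and 2935 in the others of its group, and 2961 CPM in the matching MINO DMSO library against 3410 and 3488. UPN-1 replicate 2 was also the lowest in both 72 h groups, with 3865 CPM in DMSO against 5180 and 5409. JEKO replicate 1 was the lowest in both 72 h groups, with 2738 CPM in DMSO against 3346 and 3369. In RNA from a whole culture, fewer cells that express a gene and less of its RNA per cell cannot be told apart.

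**Figure D1:**
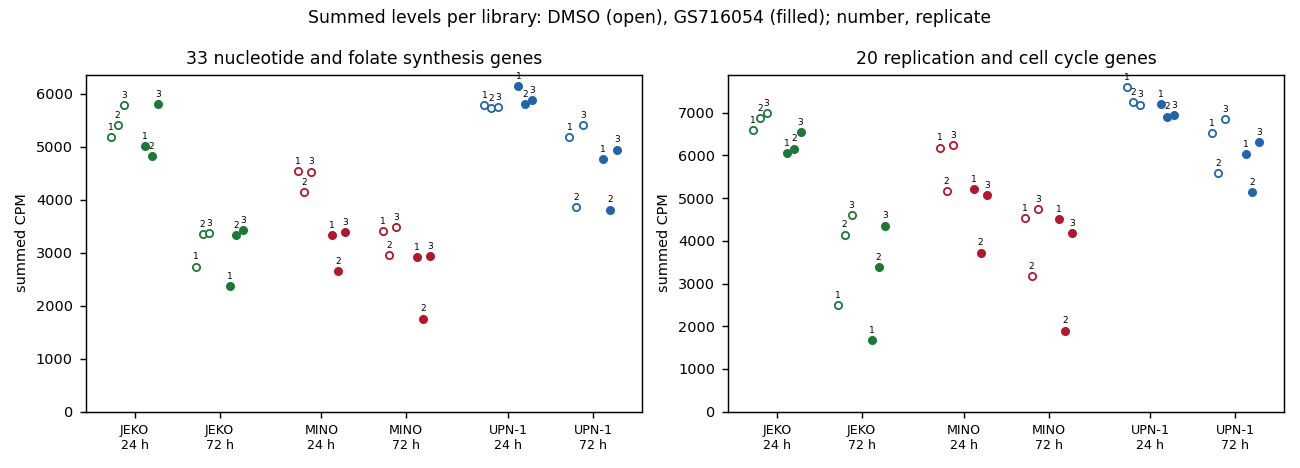
Summed CPM of the 33 nucleotide and folate genes and of 20 DNA replication and cell cycle genes in each library, by line, time and treatment; each digit is the replicate number of 1 library. In MINO at 72 h the replicate 2 library of each treatment lies below the other replicates on both sums, and in JEKO the DMSO libraries lie lower at 72 h than at 24 h.

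Vehicle-treated cells at 24 h gave the starting levels, and all 33 genes passed the low-count filter in every line. For these levels and their comparison between lines, CPM were scaled over all 36 libraries, and for comparisons within a line they were scaled over its 12 libraries. Compared per kilobase of the gene's MANE Select transcript, the most abundant in JEKO were APRT, which recovers adenine, at 279 CPM per kb, IMPDH2, the first enzyme of the guanine branch, at 195, and TK1, the cytosolic thymidine kinase, at 181. In MINO the order opened with DCTPP1, which hydrolyses non-canonical dCTP analogues, at 152 ± 12.6 CPM per kb (SD, n = 3), followed by IMPDH2 at 147 ± 15.4 and TYMS, thymidylate synthase, at 145 ± 20.4. These 3 neighbours did not differ beyond their spread. In UPN-1 the highest were TYMS at 240.5 CPM per kb, DCTPP1 at 213 and ATIC, which closes the purine ring, at 202. NME2, a nucleoside diphosphate kinase, and ADSL, adenylosuccinate lyase, were the lowest pair in every line, between 1.36 and 3.57 CPM per kb over the lines. In the annotation, NME2 shares 24.2% and NME1 18.7% of its exonic bases with the readthrough gene NME1-NME2. ADSL shares 11.1% with other genes on its strand. Reads there could be left out as ambiguous, so the levels of these genes are uncertain and may be too low.

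**Figure D2:**
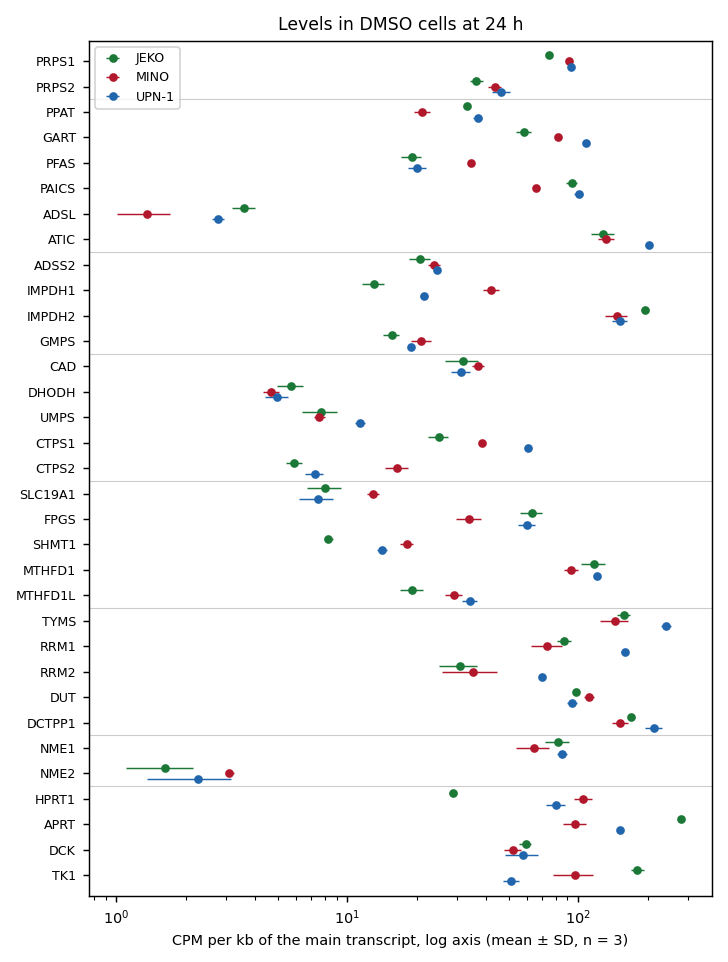
Level of each of the 33 genes in DMSO at 24 h, in CPM per kilobase on a log axis, as mean ± SD of 3 libraries with 1 colour per line. TYMS and DCTPP1 lie near the top in every line, and NME2 and ADSL near the bottom.

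Starting levels were also compared between the lines, and 20 of the 33 genes were called in an edgeR quasi-likelihood F test (adjusted p under 0.05), where 65.8% of all genes tested were called, so that the count was close to the share over all genes. HPRT1, which recovers hypoxanthine and guanine, showed the widest spread. On the scale common to the lines, JEKO libraries held 39.3, 39.2 and 41.9 CPM, MINO libraries 162.2, 140.3 and 139.2, and UPN-1 libraries 117.7, 117.5 and 99.6. Every JEKO library was below every library of the other lines, and the mean was 3.67 times higher in MINO than in JEKO. The adjusted p was 2.93e-07 for any difference among the lines (edgeR F test), and no pair of lines was tested alone. TK1 ran the other way, from 252, 247 and 277 CPM in the JEKO libraries through 146.3, 108.6 and 161.5 (MINO) to 71.6, 80.1 and 69.3 (UPN-1). IMPDH1, the second inosine monophosphate dehydrogenase, was 3.23 times higher in MINO than in JEKO (adjusted p = 6.58e-10 for any difference, edgeR F test). SLC19A1, the reduced folate carrier, was 1.74 times higher in MINO than in UPN-1 (adjusted p = 4.57e-05 for any difference, edgeR F test).

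Nucleotide and folate genes were lower with GS716054 in MINO. At 24 h, SLC19A1 fell 2.40-fold and PAICS, which carries out consecutive steps of purine ring assembly, fell 1.62-fold. At 72 h, PAICS fell by 0.58 on the log2 scale and MTHFD1L, the mitochondrial formyltetrahydrofolate synthetase that releases formate, fell 2.50-fold. These were 2 lower of 33 at 24 h, where 0.952% of all genes tested were called lower, and 2 lower at 72 h, where 2.05% were (edgeR, adjusted p under 0.05). None of the group was called higher, against 1.44% of all genes at 24 h and 3.51% at 72 h. The whole group lay low: 32 of 33 log2 fold changes were negative at 24 h with a median of -0.50, and 29 of 33 were negative at 72 h with a median of -0.30, against medians of 0.01 and -0.03 over all genes. At 24 h, 24 genes had every treated library below every DMSO library, a pattern that 16.9% of all genes showed, and at 72 h 10 did, against 10.4% of all genes.

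The labels do not say what a replicate number marks. Numbers were taken as pairing the MINO libraries within each time by a correlation rule given below. A fit with a term for each replicate number at each time (the replicate block), chosen after seeing the data, called more of the group. With that block, 21 of 33 were lower at 24 h, where 7.36% of all genes were called lower, and 14 of 33 at 72 h, where 9.8% were. The 11 genes called at both times were PRPS2, PPAT, GART, PAICS, PFAS, GMPS, CAD, DHODH, SLC19A1, MTHFD1 and MTHFD1L. The 10 called at 24 h and not at 72 h were ATIC, ADSS2, IMPDH1, UMPS, CTPS1, SHMT1, TYMS, DUT, DCTPP1 and NME1, and the 3 called at 72 h and not at 24 h were IMPDH2, RRM1 and TK1. Without both replicate 2 libraries at 72 h, 9 genes were called lower at 72 h without the block, where 6.6% of all genes were. With the block 12 were called lower, where 11.3% of all genes were, and RRM2 was called higher, where 11.8% were. When the fit held only the libraries of 1 time and no block, 23 genes were called lower at 24 h, where 9.2% of all genes were, and 0 at 72 h, where 0.198% were and 6 of the genes had an unadjusted p under 0.05.

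**Figure D3:**
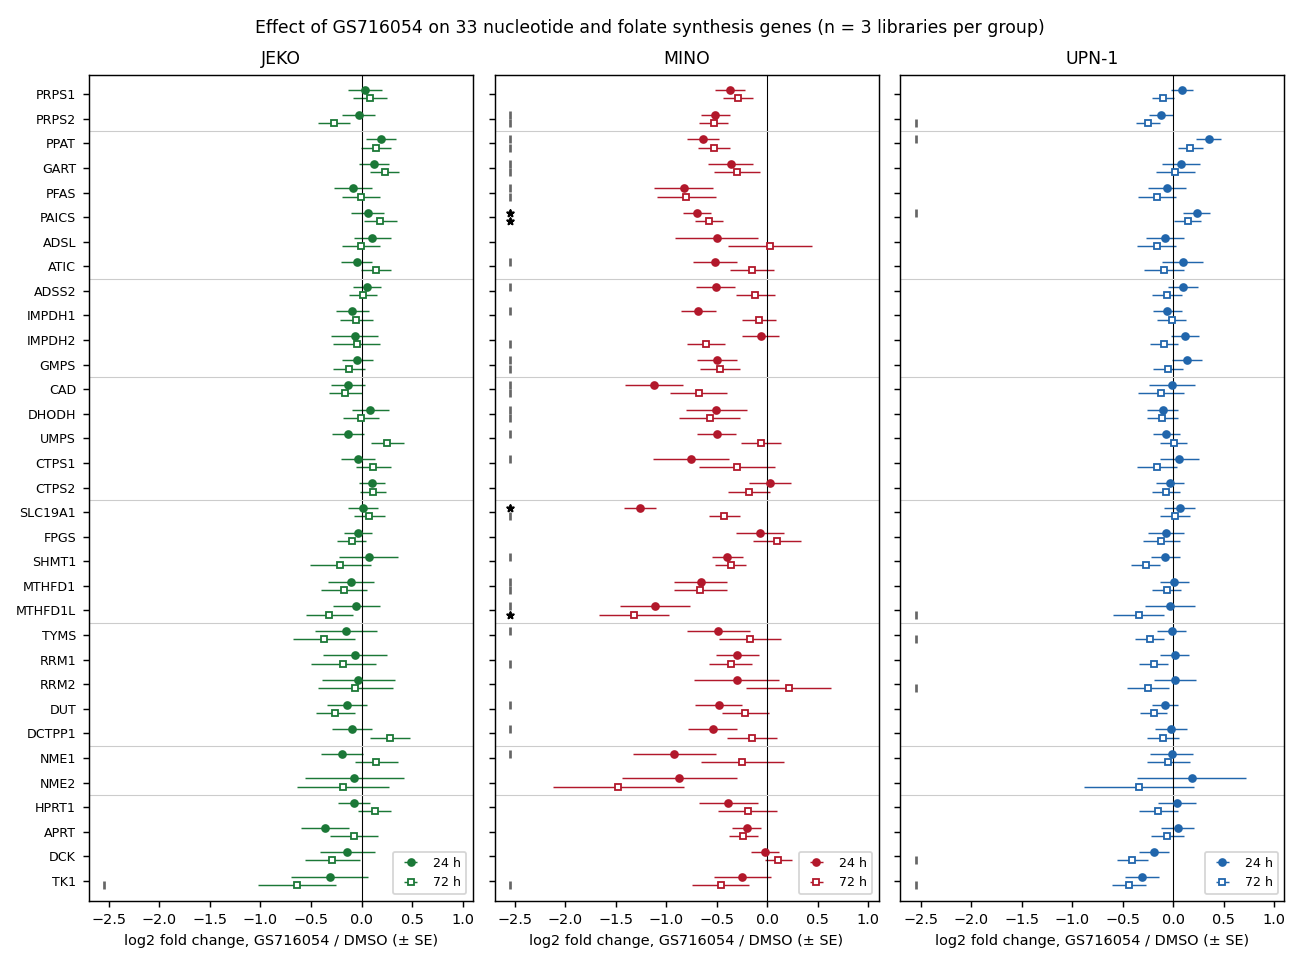
Log2 fold change of GS716054 against DMSO (± SE) for each of the 33 genes, grouped by role, in 1 panel per line, with circles for 24 h and squares for 72 h; a star marks a gene called without the replicate block and a tick a gene called only with it. In MINO most points lie below 0, down to -1.26 at 24 h and -1.47 at 72 h. In JEKO, and in UPN-1 at 24 h, they scatter around 0. In UPN-1 at 72 h most lie below 0, down to -0.435.

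Purine synthesis begins with PRPP, which PRPS1 and PRPS2 make from ribose phosphate. PRPS2 stood at 107.3, 97.1 and 93.6 CPM in the MINO DMSO libraries (replicates 1, 2 and 3) and at 72.2, 60.3 and 76.1 with GS716054 at 24 h. At 72 h it stood at 86.55, 79.0 and 83.4 CPM in DMSO and at 57.3, 47.1 and 67.7 with GS716054. All treated libraries were below all DMSO libraries at both times. Its log2 fold change was -0.51 ± 0.14 (SE) at 24 h and -0.53 ± 0.15 at 72 h (edgeR adjusted p = 0.0832 and 0.0505), and PRPS2 was called at both times with the block (adjusted p = 0.00914 and 0.00588). PRPS1, at -0.37 and -0.29, was called at neither time by either fit.

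The 6 enzymes that build inosine monophosphate, PPAT, GART, PFAS, PAICS, ADSL and ATIC, all had negative values at 24 h in MINO, from -0.83 to -0.36, and 5 of them were called with the block. PAICS (ENSG00000128050, GRCh38 chr4:56435741-56464578, plus strand) stood at 384, 394 and 381 CPM in DMSO and at 258, 201 and 256 with GS716054 at 24 h. The 72 h libraries held 326.5, 368 and 333 CPM in DMSO and 224, 202 and 261 with GS716054. The treated libraries lay below the DMSO libraries without overlap at both times. This gave a log2 fold change of -0.70 ± 0.14 (SE) at 24 h (edgeR adjusted p = 0.0255) and -0.58 ± 0.14 at 72 h (adjusted p = 0.0297). The 24 h call was lost when any 1 of the 6 libraries was left out without the block, with adjusted p between 0.0641 and 0.147, and the 72 h call was lost on leaving out replicate 1 or 3 of DMSO, or replicate 1 or 2 of GS716054 (0.0572 to 0.0788). It held at both times with the block (adjusted p = 0.00291 and 0.00675).

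PFAS, which adds the amide nitrogen in the middle of the same pathway, had the largest fall of this branch. It stood at 174.9, 167.5 and 167.5 CPM in DMSO and at 99.1, 81.0 and 106.8 with GS716054 at 24 h. At 72 h the values were 148.3, 71.3 and 160.1 CPM in DMSO and 84.6, 43.3 and 89.95 with GS716054, so that the groups overlapped through DMSO replicate 2, while each treated library was below the DMSO library of its own number. With the block its log2 fold change was -0.84 ± 0.11 (SE) at 24 h and -0.79 ± 0.11 at 72 h (edgeR adjusted p = 0.00028 and 0.000306). PPAT, the first committed enzyme of the pathway, had log2 fold changes of -0.65 ± 0.13 and -0.53 ± 0.13 with the block (adjusted p = 0.0046 and 0.0123). GART, which catalyses several steps, had values of -0.37 and -0.32 with the block (adjusted p = 0.0317 and 0.0483). ATIC was called with the block at 24 h (-0.52, adjusted p = 0.0327), and ADSL at neither time.

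The branches from inosine monophosphate to AMP and GMP, carried by ADSS2 for adenine and by IMPDH1, IMPDH2 and GMPS for guanine, were negative in MINO for all 4 genes at both times. IMPDH1 stood at 103.9, 92.2 and 108.3 CPM in DMSO and at 72.4, 50.7 and 66.4 with GS716054 at 24 h. By 72 h it stood at 76.0, 63.4 and 78.85 CPM in DMSO and at 68.5, 55.5 and 82.3 with GS716054. The groups were apart at 24 h and overlapped at 72 h. The log2 fold change was -0.68 ± 0.17 (SE) at 24 h and -0.08 ± 0.17 at 72 h (edgeR adjusted p = 0.0569 and 0.818), and with the block it was called at 24 h (adjusted p = 0.000984). IMPDH2 showed the other order, with -0.07 at 24 h and -0.61 at 72 h (adjusted p = 0.0729 at 72 h, and 0.00994 with the block). GMPS was called with the block at both times, with log2 fold changes of -0.51 and -0.51 (adjusted p = 0.0261 and 0.0251).

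Among the pyrimidine genes, CAD, the large protein that carries the first steps of ring assembly, had the largest change. It stood at 267, 242 and 236 CPM in the MINO DMSO libraries and at 137.4, 91.2 and 112.7 with GS716054 at 24 h. At 72 h it stood at 198.9, 130.5 and 214.5 CPM in DMSO and at 148.2, 59.8 and 131.6 with GS716054. The groups did not overlap at 24 h, and at 72 h they overlapped through DMSO replicate 2. Its log2 fold change was -1.13 ± 0.29 (SE) at 24 h and -0.68 ± 0.29 at 72 h (edgeR adjusted p = 0.0603 and 0.18), and CAD was called at both times with the block (adjusted p = 0.00019 and 0.00212). DHODH, the mitochondrial dehydrogenase, was called with the block at both times (-0.51 and -0.59), UMPS, which makes UMP, and CTPS1, a CTP synthetase, at 24 h (-0.52 and -0.77). CTPS2, the other CTP synthetase, lay at 0.03 and -0.18 and was called at neither time.

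The largest called changes were in folate genes. SLC19A1 (ENSG00000173638, chr21:45493572-45573365, minus strand), which carries folate across the plasma membrane, stood at 56.8, 59.4 and 63.0 CPM in DMSO and at 23.45, 20.9 and 30.4 with GS716054 at 24 h. The 72 h libraries held 50.2, 41.8 and 55.1 CPM in DMSO and 37.5, 33.7 and 38.5 with GS716054. The groups were apart at both times and closer at 72 h. This gave a log2 fold change of -1.26 ± 0.16 (SE) at 24 h (edgeR adjusted p = 0.00338) and -0.42 ± 0.15 at 72 h (adjusted p = 0.122, and 0.0219 with the block). The 24 h call held in all 6 fits that left out 1 library. With the block, its effect was less negative at 72 h than at 24 h by 0.86 ± 0.17 on the log2 scale (edgeR adjusted p = 0.0316), where 0.186% of all genes tested in MINO were called in that direction. No other gene of the 33 was called for a difference between the times with the block, in MINO, in UPN-1 (0.0459% of all genes) or in JEKO. Without the block 0 of 33 were called in each line, where 0.0133% of all genes were in MINO and none in the other lines, with 2 genes at an unadjusted p under 0.05 in MINO and 0 in the others, and DESeq2 called 0.

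MTHFD1L (ENSG00000120254, chr6:150865679-151101887, plus strand) stood at 95.4, 83.4 and 98.6 CPM in DMSO and at 46.3, 32.97 and 49.1 with GS716054 at 24 h. By 72 h it stood at 92.7, 59.6 and 104.8 CPM in DMSO and at 44.8, 14.2 and 44.2 with GS716054. No treated library reached a DMSO library at either time, and replicate 2 was the lowest of its group at both times in both treatments. The log2 fold change was -1.11 ± 0.34 (SE) at 24 h (edgeR adjusted p = 0.11, and 0.000464 with the block) and -1.32 ± 0.35 at 72 h (adjusted p = 0.0423, and 5.64e-05 with the block). Without both replicate 2 libraries at 72 h the 72 h value was -1.17 ± 0.16 (adjusted p = 0.0003675). The 72 h call in the fit of all MINO libraries without the block (adjusted p = 0.0423) was lost without 1 of 3 libraries. These were DMSO replicate 1, DMSO replicate 3 and GS716054 replicate 3 (edgeR adjusted p = 0.114, 0.129 and 0.0569). MTHFD1, its cytosolic partner enzyme, was called with the block at both times, with -0.68 ± 0.16 and -0.74 ± 0.16 (adjusted p = 0.00992 and 0.00536). SHMT1, a serine hydroxymethyltransferase, was called with the block at 24 h (-0.41, adjusted p = 0.041), and FPGS, which retains folates in the cell by adding glutamates, had values of -0.07 and 0.10 and was called at neither time.

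**Figure D4:**
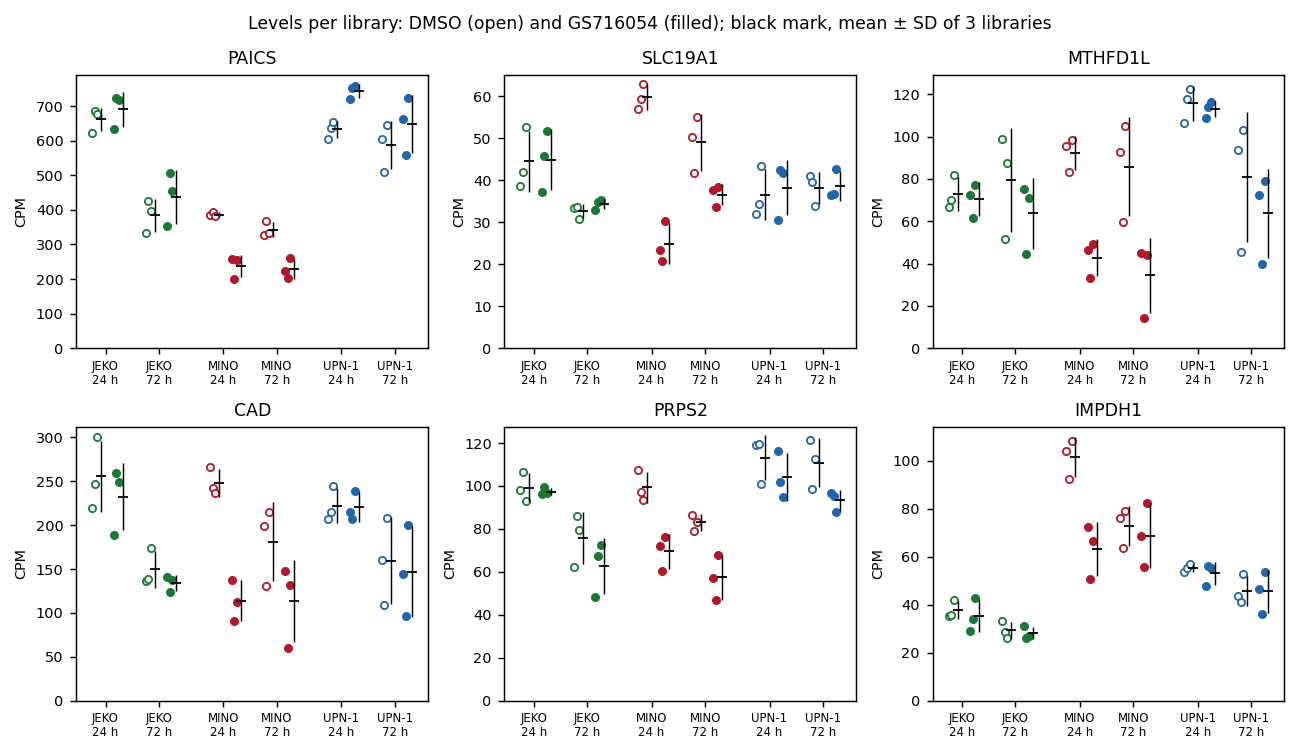
CPM of PAICS, SLC19A1, MTHFD1L, CAD, PRPS2 and IMPDH1 in each library, by line, time and treatment, with open points for DMSO, filled points for GS716054 and a black mark for the mean ± SD; CPM were scaled within each line. The MINO libraries with GS716054 at 24 h lie below the MINO DMSO libraries for all 6 genes, and for none of the 6 genes do the treated JEKO or UPN-1 libraries at 24 h all lie below DMSO.

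Promoter windows are shown for the 3 genes called in MINO. Each of these genes has a window with an exact copy of CACGTG, the core E-box letters to which MYC is known to bind among other factors. Only windows holding CACGTG were considered, and of those the one nearest the MANE Select start was taken. Each window runs from 250 bases before to 50 bases after a RefSeq start (assembly GRCh38.p14), is printed on the gene's strand, and has the E-box in capitals.
MTHFD1L: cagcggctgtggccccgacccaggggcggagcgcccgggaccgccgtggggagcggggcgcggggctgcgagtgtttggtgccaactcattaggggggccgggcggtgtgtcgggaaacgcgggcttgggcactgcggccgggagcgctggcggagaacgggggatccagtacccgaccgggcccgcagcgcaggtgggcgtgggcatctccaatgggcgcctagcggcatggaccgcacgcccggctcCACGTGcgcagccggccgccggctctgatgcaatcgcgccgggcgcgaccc
PAICS: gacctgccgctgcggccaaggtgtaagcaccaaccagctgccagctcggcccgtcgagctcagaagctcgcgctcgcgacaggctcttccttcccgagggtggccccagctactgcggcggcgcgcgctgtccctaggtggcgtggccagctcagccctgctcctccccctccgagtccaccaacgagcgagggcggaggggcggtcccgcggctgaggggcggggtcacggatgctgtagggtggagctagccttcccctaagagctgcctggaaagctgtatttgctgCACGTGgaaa
SLC19A1: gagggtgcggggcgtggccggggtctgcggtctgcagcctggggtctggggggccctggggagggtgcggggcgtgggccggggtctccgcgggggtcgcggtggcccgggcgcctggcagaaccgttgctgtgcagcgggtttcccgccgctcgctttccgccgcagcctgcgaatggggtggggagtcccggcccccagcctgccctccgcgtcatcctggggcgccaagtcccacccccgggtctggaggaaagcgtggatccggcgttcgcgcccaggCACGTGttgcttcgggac
These are chr6:150866083-150866382 on the plus strand, chr4:56435502-56435801 on the plus strand and chr21:45541797-45542096 on the minus strand. The E-box begins at position -1 in the MTHFD1L window, at 41 in the PAICS window and at 33 in the SLC19A1 window, counted from the RefSeq start. These starts lie 631, 508 and 594 bases from the start of the MANE Select transcript of each gene, and no base of the windows is in an exon of that transcript. PAICS and PPAT begin 126 bases apart in opposite directions in GENCODE, and the E-box in the PAICS window, at chr4:56435792, is also in a PPAT window.

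Windows were found for 31 of the 33 genes. CACGTG, which reads the same on both strands, was present for 11 of these 31 genes (35.5%), against 2396 of 27305 genes with a window (8.77%), and in 13 of 53 windows (24.5%) against 2548 of 35116 (7.26%). The 11 genes were PPAT, PAICS, ATIC, DHODH, SLC19A1, FPGS, MTHFD1, MTHFD1L, NME1, DCTPP1 and DCK, and CAD and PFAS were not among them. TTTCCCGC or TTTGGCGC, letters of the E2F type searched on both strands, were present for 6 of 31 genes (19.4%) against 2.75% of all genes. CCAAT, searched on both strands, was present for 12 of 31 (38.7%) against 39.7% of all genes. Windows can overlap, so the same site can be counted in several windows, as for MTHFD1L and for PAICS with PPAT. The genes compared against were not limited to those expressed in these lines. These are matches of letters in a window, and no binding was measured.

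The deoxynucleotide and thymidylate genes TYMS, RRM1, RRM2, DUT and DCTPP1 had log2 fold changes from -0.54 to -0.30 in MINO at 24 h. DCTPP1, the largest, stood at 150.9, 176.0 and 170.9 CPM in DMSO and at 101.1, 94.6 and 146.4 with GS716054. At 72 h it stood at 99.8, 77.65 and 114.2 CPM in DMSO and at 103.9, 53.7 and 105.3 with GS716054. The treated libraries were below the DMSO libraries at 24 h and mixed with them at 72 h. Its log2 fold change was -0.54 ± 0.25 (SE) at 24 h and -0.15 ± 0.25 at 72 h (edgeR adjusted p = 0.272 and 0.763). With the block, DCTPP1, TYMS and DUT, the dUTPase, were called at 24 h (-0.56, -0.50 and -0.49), and RRM1, the large ribonucleotide reductase subunit, at 72 h (-0.40, adjusted p = 0.0455). RRM2, the small subunit, had values of -0.30 and 0.21 and was called higher at 72 h with the block once both replicate 2 libraries were left out (0.34, adjusted p = 0.018).

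DCTPP1 shares 41.2% and TYMS 47.9% of its exonic bases with genes on the opposite strand, and no strand setting for the counting was given. Depending on that setting, reads in those bases could be assigned by strand or left out as ambiguous. Ambiguous reads made up 1.98% to 2.6% of each library, and the levels of these genes are uncertain. The same holds for smaller parts of DUT (14.5%), SLC19A1 (13.9%) and MTHFD1 (11.1%). DCK shares 6.4% of its exonic bases with MOB1B on its own strand, where reads could be left out as ambiguous.

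NME1 and NME2 interconvert nucleoside diphosphates and triphosphates. NME2 stood at 2.07, 1.90 and 1.95 CPM in MINO DMSO and at 0.89, 1.25 and 1.06 with GS716054 at 24 h. The 72 h libraries held 2.01, 0.391 and 1.51 CPM in DMSO and 1.098, 0.247 and 0.172 with GS716054, which overlapped and reached the level that 3 counts give. Its log2 fold change of -1.47 ± 0.65 (SE) at 72 h was the most negative of the group but was not called (edgeR adjusted p = 0.1995). NME1 was called with the block at 24 h (-0.94 ± 0.22, adjusted p = 0.0107).

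The salvage genes HPRT1, APRT, DCK and TK1 had values from -0.39 to -0.02 in MINO at 24 h, and 0 of 4 were called by either fit. TK1 stood at 135.6, 100.2 and 148.5 CPM in DMSO and at 125.0, 80.2 and 118.7 with GS716054 at 24 h. By 72 h it stood at 86.9, 64.6 and 88.8 CPM in DMSO and at 75.5, 31.8 and 67.4 with GS716054. The groups overlapped at both times, while each treated library was below the DMSO library of its number. TK1 was called with the block at 72 h (-0.53 ± 0.14 SE, edgeR adjusted p = 0.0161). DCK, deoxycytidine kinase, had values of -0.02 and 0.11 and was called at neither time.

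In JEKO, none of the 33 genes was called with GS716054 at 24 h or at 72 h by edgeR without the block. Of all genes tested, 0.018% and 0.3% were called at these times. No gene of the group had an unadjusted p under 0.05 at either time, and DESeq2 called 0 at both. The medians were -0.05 at both times, and at 24 h the values ran from -0.36 to 0.20. PAICS stood at 623, 685 and 677.5 CPM in DMSO and at 632, 722 and 717 with GS716054 at 24 h, which overlapped. SLC19A1 stood at 38.7, 42.0 and 52.7 CPM in DMSO and at 37.2, 45.7 and 51.6 with GS716054 at 24 h, which also overlapped. APRT had the lowest value at 24 h, and its GS716054 replicate 2 library stood at 125.4 CPM against 274.8 and 272.7 in the others.

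TK1 was the 1 gene called in JEKO with the block, at 72 h, where 1.44% of all genes were called lower. It stood at 93.9, 155.6 and 190.6 CPM in DMSO and at 33.1, 107.0 and 142.5 with GS716054. The groups overlapped, and each treated library was below the DMSO library of its number. Its log2 fold change with the block was -0.80 ± 0.19 (SE, adjusted p = 0.0389 by edgeR), without it -0.64 ± 0.38 (adjusted p = 0.747), and without both replicate 1 libraries -0.48 ± 0.14 with the block (adjusted p = 0.158). The JEKO replicate numbers did not meet the correlation rule for pairing at 24 h, so no block values are given there.

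Without the block, edgeR called 0 of 33 genes in UPN-1 at either time, against 0.0262% of all genes at 24 h and 0.334% at 72 h. At an unadjusted p under 0.05 there were 1 and 2 genes, and DESeq2 called 0 at both times. With the block, 2 purine genes were higher at 24 h, where 0.918% of all genes were called higher. PPAT stood at 140.7, 127.0 and 132.1 CPM in DMSO and at 183, 156 and 171 with GS716054, and PAICS at 605, 638 and 655 in DMSO and at 720.1, 752 and 757 with GS716054. Every treated library was above every DMSO library for both genes. The log2 fold changes with the block were 0.35 ± 0.06 (SE) for PPAT and 0.23 ± 0.06 for PAICS (edgeR adjusted p = 0.00366 and 0.0395). In all, 7 genes had treated libraries wholly above DMSO at 24 h, PPAT, GART, PAICS, ATIC, IMPDH2, GMPS and CTPS1, a pattern that 7.33% of all genes showed.

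At 72 h in UPN-1, 6 genes were lower with the block, where 3.29% of all genes were called lower. They were PRPS2, MTHFD1L, TYMS, RRM2, TK1 and DCK, with log2 fold changes from -0.45 to -0.23. Without the block, the median log2 fold change of every role was negative at 72 h. These medians ran from -0.28 for the salvage genes to -0.04 for the inosine monophosphate genes. DCK stood at 152.8, 132.7 and 130.9 CPM in DMSO and at 116.1, 115.0 and 83.0 with GS716054, without overlap. Its log2 fold change with the block was -0.42 ± 0.07 (SE, edgeR adjusted p = 0.00129). TK1 stood at 102.2, 80.3 and 75.05 CPM in DMSO and at 82.65, 48.5 and 59.4 with GS716054, which overlapped, with each treated library below the DMSO library of its number (-0.45 ± 0.08 with the block, edgeR adjusted p = 0.00112). Without both replicate 2 libraries the count with the block was 8, these 6 with RRM1 and DUT, where 5.2% of all genes were called lower, and without the block it was 0, where 0.0393% were.

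Whether the effect differed among the lines was tested over all 36 libraries. At 24 h SLC19A1 was the 1 gene of 33 called, where 0.106% of all genes tested were: its effect in MINO was lower than in JEKO by -1.26 on the log2 scale, and that in UPN-1 differed from JEKO by 0.05 (edgeR adjusted p = 0.00312). PPAT and PAICS followed with adjusted p of 0.0558 and 0.0694. At 72 h 0 were called, where 1.01% of all genes tested were, while 3 had an unadjusted p under 0.05 and DESeq2 called 2. With the block, 12 genes differed at 24 h, where 5.74% of all genes did: PPAT, GART, PFAS, PAICS, ADSS2, IMPDH1, GMPS, CAD, CTPS1, SLC19A1, MTHFD1 and MTHFD1L, all with a lower effect in MINO than in JEKO. At 72 h 8 differed with the block, where 9.78% of all genes did. Of these, PPAT, GART, PFAS, PAICS, CAD, MTHFD1 and MTHFD1L had the lower effect in MINO, and DCK had a higher effect in MINO than in JEKO, by 0.47. The block for JEKO at 24 h rests on numbers that did not meet the correlation rule for pairing.

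Time in culture with DMSO alone went with lower levels of this group in JEKO. Between 24 h and 72 h, 21 of 33 genes were lower and 0 higher (edgeR, adjusted p under 0.05), where 14.6% of all genes were called lower and 17.1% higher, and the median log2 fold change was -0.77 against 0.05 over all genes. These comparisons share their DMSO libraries with the treatment comparisons above. RRM2 stood at 97.1, 101.8 and 133.7 CPM at 24 h and at 21.6, 28.9 and 38.7 at 72 h, with no overlap (log2 fold change -1.90 ± 0.38 SE, adjusted p = 0.00309 by edgeR). DCTPP1 stood at 219, 220 and 229 CPM at 24 h and at 95.2, 88.9 and 76.8 at 72 h (-1.36 ± 0.20, adjusted p = 0.000923). MTHFD1 stood at 364, 401 and 459 CPM at 24 h and at 125.5, 197.8 and 206 at 72 h (-1.21 ± 0.23, adjusted p = 0.00256). By role, all 6 inosine monophosphate genes and all 5 deoxynucleotide genes were called lower, against 3 of 5 pyrimidine, 2 of 5 folate, 2 of 4 AMP and GMP branch and 1 of 4 salvage genes, the last being HPRT1. TYMS, RRM1, DUT, ADSL and SLC19A1 each lost the call in at least 1 of the fits that left out 1 library.

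In MINO, 0 of 33 genes were called between the DMSO times, where 0.0932% of all genes were, although 31 log2 fold changes were negative, the median was -0.47, 15 genes had an unadjusted p under 0.05 and DESeq2 called 3. In UPN-1, 0 were called, where 1.47% of all genes were, with 27 negative values, a median of -0.26, 10 genes at an unadjusted p under 0.05 and 2 called by DESeq2. The share of all genes is not given here for these unadjusted and DESeq2 counts, so they do not by themselves describe this group. The most negative value in MINO was that of RRM2 at -1.01 ± 0.43 (SE, edgeR adjusted p = 0.18). The MINO count was 11 once both replicate 2 libraries at 72 h were left out, all lower, where 6.5% of all genes were called lower. The UPN-1 count was 9 without DMSO replicate 3 at 72 h, all lower, where 8.57% were. It stayed at 0 once both UPN-1 replicate 2 libraries at 72 h were left out.

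**Figure D5:**
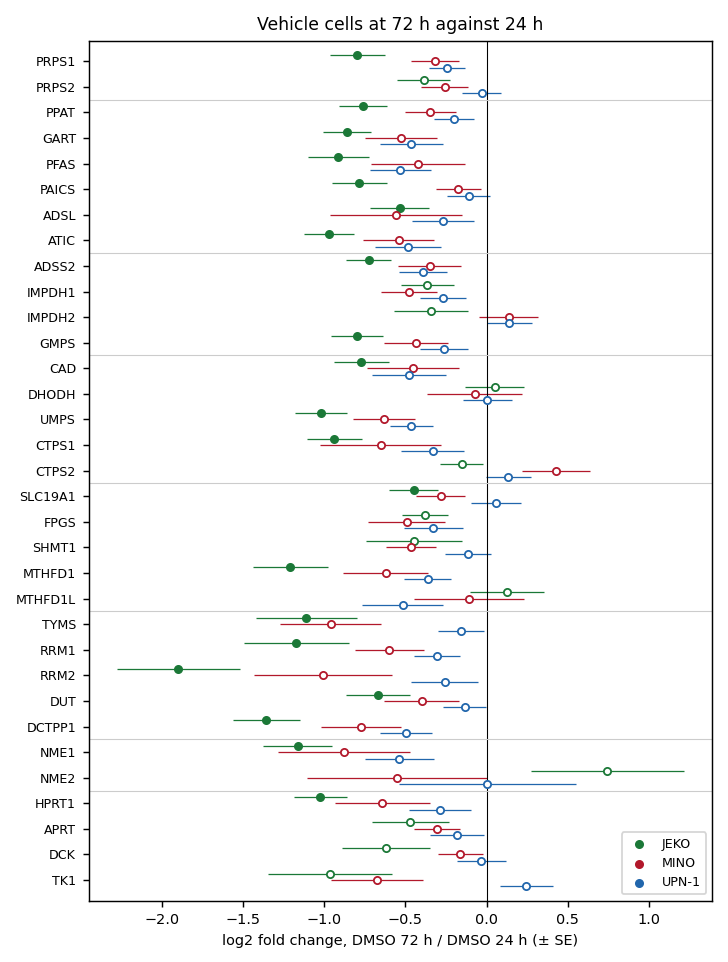
Log2 fold change of DMSO at 72 h against DMSO at 24 h (± SE) for the 33 genes in each line, with filled points for an edgeR adjusted p under 0.05. Filled points are seen in JEKO alone, where 21 lie below 0.

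Genes of DNA replication and the cell cycle moved with several of these results. Of 20 such genes, 12 were called lower in JEKO DMSO at 72 h, where 14.6% of all genes were, with a median log2 fold change of -0.91. In MINO with GS716054 their medians were -0.29 at 24 h, with 20 of 20 negative, and -0.31 at 72 h. Without the block 0 were called at either time, where 0.952% and 2.05% of all genes were called lower. With it 8 were called lower at 24 h and 5 at 72 h, against 7.36% and 9.8% of all genes. The summed level of the 20 genes in MINO was 6179, 5168 and 6236 CPM in DMSO and 5210, 3725 and 5069 with GS716054 at 24 h. In UPN-1 at 72 h 4 of the 20 were called with the block, which called 3.29% of all genes lower. The part of the 20 genes in the results on nucleotide genes was not tested.

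MYC was lower with GS716054 in MINO at both times. It stood at 472, 504 and 431 CPM in DMSO and at 163, 154 and 163 with GS716054 at 24 h. At 72 h it stood at 583, 735 and 636 CPM in DMSO and at 176, 217 and 211 with GS716054. The groups were far apart, with log2 fold changes of -1.55 ± 0.14 (SE) and -1.69 ± 0.14 (edgeR adjusted p = 0.000724 and 7.37e-05). In JEKO the values were 0.02 and 0.14 and in UPN-1 -0.07 and 0.28, none called without the block, and the difference among lines was called at both times. ATF4, a regulator of serine and folate enzymes, was lower in MINO too (-0.74 ± 0.17 and -1.097 ± 0.168, edgeR adjusted p = 0.0383 and 0.00327), although in each of the 6 fits that left out 1 library it was not called at 24 h (adjusted p between 0.0746 and 0.185). Between the DMSO times ATF4 was higher in JEKO (1.35, edgeR adjusted p = 0.00461), and MYC was not called there (0.18, adjusted p = 0.377). E2F2 and E2F3 were lower in that comparison (-0.98 and -0.80, edgeR adjusted p = 0.0199 and 0.00717), and E2F1 was not called (-0.10, adjusted p = 0.734). Neither E2F2 nor E2F3 was called over time in MINO or UPN-1 without the block. In MINO the values over time were 0.47 for MYC and 0.86 for ATF4, neither called. E2F1 was called in no treatment comparison without the block. With the block it was lower in MINO at both times (-0.56 and -0.45, edgeR adjusted p = 0.0176 and 0.0424) and in JEKO at 72 h (-0.76, adjusted p = 0.00709). E2F2 was lower with the block in MINO at 24 h (-0.38, edgeR adjusted p = 0.0354) and was not called there at 72 h (-0.05, adjusted p = 0.809). The part of MYC, ATF4 and these E2F genes in the results on nucleotide genes was not tested. The mRNAs of the inhibitor's targets KDM5A, KDM5B and KDM5C, whose protein activity these data do not measure, were called in none of the treatment comparisons without the block, and neither was KDM5D in MINO, the line in which it was tested. With it, KDM5B was higher in MINO at 24 h (0.85, edgeR adjusted p = 0.000251) and in UPN-1 at 72 h (0.40, adjusted p = 0.00457).

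A further 72 genes of the surrounding pathways were listed (nucleotide kinases, salvage and transport, pentose phosphate, mitochondrial carbon-unit and serine enzymes), of which 58 were tested in MINO. At 24 h 2 were called lower and 0 higher, against 0.952% and 1.44% of all genes tested. The 2 were SLC29A1, a nucleoside transporter (-0.61 ± 0.12 SE, edgeR adjusted p = 0.0222), and UCK2, a uridine-cytidine kinase (-0.73 ± 0.17, adjusted p = 0.0428). Neither was called in any fit that left out 1 of the 6 libraries (adjusted p from 0.0542 to 0.231). At 72 h 5 were called lower and 0 higher, against 2.05% and 3.51% of all genes tested. PHGDH, the first enzyme of serine synthesis, stood at 360, 249 and 402 CPM in DMSO and at 112.5, 63.6 and 102.7 with GS716054, far apart (-1.86 ± 0.26, adjusted p = 0.0019). MTHFD2, the mitochondrial enzyme upstream of MTHFD1L, stood at 316.5, 269 and 311 CPM in DMSO and at 162.7, 101.3 and 153.5 with GS716054, also without overlap (-1.103 ± 0.165, adjusted p = 0.0028). The others were TKT, transketolase (-0.91), ADA, adenosine deaminase (-0.89), and MTRR, methionine synthase reductase (-0.68). ADA was not called without GS716054 replicate 1 or 3 (adjusted p = 0.0505 and 0.0641), nor MTRR on leaving out replicate 1 or 3 of DMSO, or replicate 1 or 2 of GS716054 (0.0526 to 0.102). With the block 19 were lower at 24 h, where 7.36% of all genes were called lower, and 18 at 72 h, where 9.8% were. The block also called 3 higher at 24 h and 2 at 72 h, and the share of all genes called higher with it is not given here.

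In JEKO and UPN-1, 0 of the 62 and 57 tested genes of that list were called with GS716054 at either time without the block. In JEKO 1 and 7 had an unadjusted p under 0.05 and DESeq2 called 0 and 1, and in UPN-1 these were 3 and 4, with 0 and 1 called by DESeq2. In JEKO DMSO between 24 h and 72 h the list split, with 12 genes lower and 12 higher, against 14.6% and 17.1% of all genes. AK1 and AK4, adenylate kinases, were higher by 3.84 and 3.61 on the log2 scale and PHGDH by 1.92 (edgeR, adjusted p under 0.05 for each).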

How the data were processed

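The authors deposited 1 table of whole-number read counts per library, with 58302 Ensembl gene identifiers, of which 57532 matched GENCODE release 44. The submitters' processing notes name HISAT2 2.2.1, HTSeq 0.13.5 and the build GRCh38, and the strand setting is not given in the sources used here. Summary lines were left out of library sizes and tests, and 43.3% to 45.9% of each library's reads lay outside features. No pair of libraries held identical values.

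Each line had its own edgeR 4.0.16 quasi-likelihood fit of 12 libraries (R 4.3.3, limma 3.58.1, TMM scaling, filterByExpr set to min.count 10 and min.total.count 15). JEKO had 16690 tested genes, MINO 15028 and UPN-1 15248. Differences among lines came from 1 fit of all 36 libraries and 17980 genes. P-values were adjusted by Benjamini-Hochberg over all genes tested, and a gene was called at an adjusted p under 0.05. Counts at an unadjusted p under 0.05 and counts by DESeq2 are given without the share of all genes. They do not by themselves describe the listed genes. CPM are counts scaled by TMM library size, and lengths for values per kilobase are from GENCODE. The code was tested on simulated data.

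Replicate numbers were taken as pairing libraries where every same-numbered DMSO and GS716054 library deviated together from its group mean with a correlation over 0.1 across genes. This was so in MINO (0.13 to 0.269 at 24 h, 0.287 to 0.551 at 72 h), UPN-1 (0.107 to 0.238, 0.483 to 0.581) and JEKO at 72 h (0.291 to 0.593), but not in JEKO at 24 h (0.055 to 0.213) or across times (-0.142 to 0.303). The rule separates these cases narrowly, since the MINO values at 24 h lie within those of MINO GS716054 libraries across times (0.081 to 0.303). Libraries of unlike number were not compared, so pairing within a time is an assumption of the block.

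Members, pathway lists and tests were chosen with earlier results of these data known. Per-library values are given for genes called without the block, or else for the gene of a role with the largest change in any treatment comparison, and genes called with the block where numbers pair are named. PFAS, HPRT1, DCK, PPAT in UPN-1, PAICS and SLC19A1 in JEKO, APRT, and the DMSO time examples were given per library after their values were seen. Promoter windows follow the same genes if they hold CACGTG, and a DCTPP1 window that overlaps exons was not printed. Alternatives were DESeq2 1.42.0, its size factors, other filters, other sets of libraries, replicate blocks and left-out libraries. Some listed genes are not reported here.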

Additional observations from a re-analysis of the deposited data

Results flagged for a closer look

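The effect of GS716054 differed among the 3 lines for SLC19A1 at 24 h, by a test of the difference itself (edgeR F test, adjusted p = 0.00312), with a log2 fold change in MINO lower than that in JEKO by -1.26. For MYC the same test gave an adjusted p of 0.000497 at 24 h and 4.9e-06 at 72 h. At 72 h the SLC19A1 difference was not called (adjusted p = 0.528).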

How the results depend on the processing

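No result reversed, and the cause of the changes below was not tested. A setting can also change how many of all genes are called. That share is given above for some settings and not for the others, so the counts below do not by themselves describe this group. The fits with both libraries of a replicate number left out, and the block within line and time, were chosen after seeing the data. In MINO at 24 h the 2 calls became 7 with DESeq2, 10 with no low-count filter, 4 with a stricter filter, 7 in the fit of all 36 libraries, 23 with only the libraries compared, 10 with a replicate block within line and 21 with the block within line and time, and 1 call, SLC19A1, was left without any 1 library. In MINO at 72 h the 2 calls became 5, 7, 3, 5, 0, 9 and 14 under the same settings, and 0 to 7 with each library left out (0 without DMSO replicate 1 or 3, 7 without DMSO replicate 2, 1 without GS716054 replicate 1 or 2). They were 9 without both replicate 2 libraries, and 13 with the block as well. The difference between MINO times gave 1 call with the block within line and time.

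Counts of 0 became 1 in JEKO at 72 h with no filter and with the block within line and time, which left 0 without both replicate 1 libraries. In UPN-1 they became 2 at 24 h and 6 at 72 h with the block within line and time, 1 at 72 h with the block within line, and 8 with the block but without both replicate 2 libraries. In MINO DMSO over time the count was 3 with DESeq2, 10 with no filter, 2 in the fit of all 36 libraries, 11 with the block within line and 11 without both replicate 2 libraries. In UPN-1 DMSO it was 2 with DESeq2, 8 with no filter, 11 with the block within line and 0 to 9 with each library left out (9 without DMSO replicate 3 at 72 h). It stayed at 0 without both UPN-1 replicate 2 libraries at 72 h. The block within line assumes pairs across times, which the numbers did not show.

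Differences among lines at 24 h rose from 1 to 2 with DESeq2 size factors, 3 with DESeq2, 4 with no filter, 3 with a stricter filter, 4 with the block within line, 12 with the block within line and time and 1 to 2 with each library left out (2 without MINO GS716054 replicate 3). At 72 h the count of 0 became 2 with DESeq2, 1 with no filter, 1 with a stricter filter, 2 and 8 with these blocks, and 0 to 1 with each library left out (1 without JEKO GS716054 replicate 1). The 21 genes lower in JEKO DMSO were 16 to 20 with each library left out.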
